A study of Mus musculus with 25 samples.

Results

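The cytosolic ribosomal protein genes of mouse hematopoietic stem cells (HSCs) were followed across 4 genotypes and up to 2 time points. They were taken from the deposited gene table as the protein-coding genes whose symbol begins with Rpl or Rps followed by a digit, a or p. Of 97 symbols with that beginning, 10 Rps6k kinase genes and 3 genes named as pseudogene copies (Rpl10-ps3, Rpl36a-ps1 and Rpl9-ps6) were left out. The remaining 84 of 13641 genes comprised 43 proteins of the large subunit, 31 of the small subunit, 3 proteins of the P stalk and 6 paralogues. The last was Rps19bp1, which is named after a ribosomal protein and is not a part of the ribosome, so that for this gene the label describes the symbol only. All 84 passed the filter on low counts, and 83 had at least 100 counts in every library, the exception being Rpl39l.

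The cytosolic ribosome is built from a small subunit, which reads the mRNA, and a large subunit, which joins amino acids, and each protein is needed in about equal amounts with the ribosomal RNA. The mRNAs of these proteins are short, abundant and carry a 5' terminal oligopyrimidine (TOP) tract through which mTORC1 controls their translation. HSCs are known for a low rate of protein synthesis, and loss of a single copy of some ribosomal protein genes causes anemia in humans.

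The samples were HSCs sorted as Lin-Sca1+cKit+CD48-CD150+ cells from the bone marrow of engrafted mice in 25 samples, with donor marrow of 1 of 4 genotypes. Il1bKO denotes SclCre;V617F;IL-1b-/-GFP, with 3 libraries at 4 weeks and 4 at 2 weeks. Il1r1KO denotes SclCre;V617F;IL-1R1-/-GFP, with 3 libraries at 4 weeks and 4 at 2 weeks. VF denotes SclCre;V617F;GFP, with 3 libraries at 4 weeks and 4 at 2 weeks, and WT denotes SclCre;GFP, with 4 libraries at 2 weeks. Time was counted from the start of tamoxifen, which per the design text followed after 16 weeks and switches on the human JAK2 V617F construct through the tamoxifen-dependent SclCre. The interleukin-1 genotypes therefore belong to the donor cells, and the labels describe no such deletion in the host. The 2 processing batches were the 2 time points, so week and batch cannot be told apart, and there was no WT library at 4 weeks. The labels do not say whether each library came from 1 mouse, so p-values measure the spread between these libraries.

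Libraries held 21990959 to 40178173 gene counts. The libraries labelled WT went against their genotype label at the Cre: CreERT2 had 0, 0, 1 and 0 reads in them, whereas every mutant library had at least 5382 reads. Their pEGFP level was also uneven, at 1027, 519, 3.04 and 48.8 CPM, where CPM is a gene's counts scaled to a common total per library (the usual CPM). Il1b had 0 reads in all 7 Il1bKO libraries, but also in library 1 of VF at 2 weeks, in library 2 of Il1r1KO at 2 weeks and in 3 of the 4 libraries labelled WT, so a 0 is a weak check of that label. Il1r1 kept 271 to 882 reads in Il1r1KO libraries, and whether these lie outside the deleted part is not given in the sources used here, so this count checks nothing. Library 5 of the Il1bKO 4-week group had the fewest detected genes, 11871, against at least 13039 in every other library, and held 12 reads of Il1r1. Library 5 of the Il1r1KO 4-week group had the highest share of ribosomal protein counts. The 12 HSC markers (Hlf, Mecom, Slamf1, Procr and others) were detected in every library, and their summed level was 1970 to 2888 CPM in 4-week mutant libraries, 3059 to 3899 CPM in 2-week mutant libraries and 3326 to 4760 CPM in those labelled WT.

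Together the 84 genes took 1.44% to 2.19% of the gene counts of a library, with a median of 1.70%. The share was 1.80%, 1.76% and 1.70% in Il1bKO at 4 weeks, against 1.60%, 1.59%, 1.53% and 1.44% in Il1bKO at 2 weeks. It was 2.19%, 1.72% and 1.59% in Il1r1KO at 4 weeks, against 1.75%, 1.49%, 1.66% and 1.51% in Il1r1KO at 2 weeks. It was 1.91%, 1.65% and 1.79% in VF at 4 weeks, against 1.73%, 1.74%, 1.59% and 1.64% in VF at 2 weeks, and the libraries labelled WT had 1.70%, 1.80%, 1.64% and 1.79%. Only in Il1bKO did the 4-week and 2-week values stand apart without overlap. The Il1bKO libraries at 2 weeks were the lowest group, at 1.54% ± 0.0759 (SD, n = 4), and their values overlapped those of the Il1r1KO and VF groups at that week. In Il1r1KO the 4-week mean of 1.83% ± 0.314 (SD, n = 3) rests on library 5, since the other libraries lay at or below 1.72%. A share is relative to the rest of the transcriptome, and in bulk samples fewer cells of a type and less RNA per cell cannot be told apart. How reads that match several places were counted is not given, so the share is uncertain for members with near-identical copies.

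**Figure D1:**
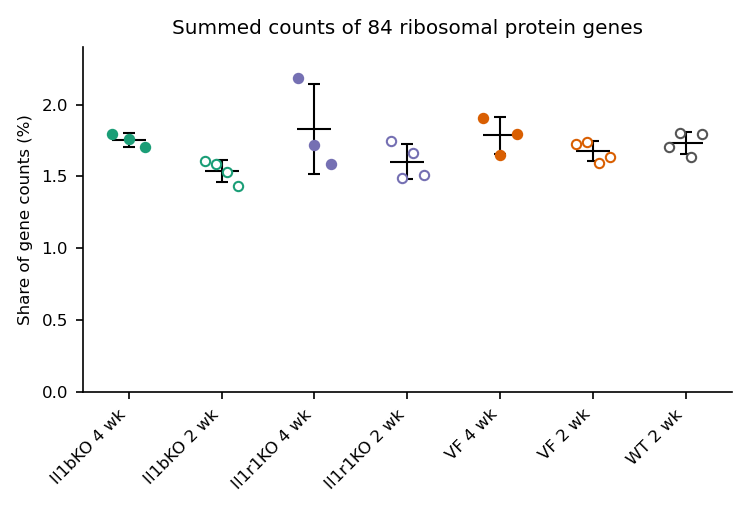
Share of all gene counts taken by the 84 ribosomal protein genes (y axis, percent) in each library, by genotype and week (x axis). Points are libraries, filled at 4 weeks and open at 2 weeks, and bars give the mean and SD; the highest point, 2.19%, is library 5 of the Il1r1KO 4-week group.

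Levels per length differed widely between members although their products enter the ribosome in about equal amounts. Per kilobase of annotated exon, the mean level over the 25 libraries was highest for Rpl32 at 956 CPM per kb (SD 116), followed by Rps27rt at 877 (SD 123) and Rpl4 at 726 (SD 52.2), and Rplp0 was also among the highest at 495 (SD 54.1). The ranges of Rpl32 and Rps27rt overlapped. Lowest were Rpl39l at 0.932 CPM per kb, Rpl28 at 9.19 (SD 1.26), Rpl12 at 13.2 (SD 2.13), Rps23 at 13.4 (SD 1.36) and Rpl35a at 13.5 (SD 1.92), and the last 3 overlapped one another. With the length of the principal transcript instead, a choice made after seeing the data, this order did not hold beyond Rpl32 at the top and Rpl39l at the bottom. Rpl4 then stood above Rps27rt, and Rplp0 moved to rank 10 of 84. Rps23 and Rps16 fell below Rpl28, at 18.1, 18.5 and 21.9 CPM per kb, and Rpl35a moved to 97.0 CPM per kb and rank 65. Levels of members with near-identical copies also depend on how reads that match several places were counted, which is not given. Rpl9, for example, had 65.6 CPM and its left-out copy Rpl9-ps6 had 184 CPM.

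Most members varied little between libraries. Over 24 libraries (without library 5 of Il1bKO at 4 weeks) the median coefficient of variation of a member's CPM was 12.0%, against 21.1% over all genes and 17.6% over genes averaging at least 10 CPM. The genes were not matched on expression level beyond that floor, and the part of level in the difference was not tested. The steadiest were Rpl4 (7.23%) and Rps7 (7.95%), both structural proteins of the subunits. The most variable were Rpl39l, a paralogue best known from the testis, and the paralogues Rpl36al (21.1%) and Rps27l (20.6%).

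The question of change with time after JAK2 V617F induction was addressed by comparing 4 with 2 weeks within the mutant genotypes. Taken as the mean of the 3 genotypes (9 libraries at 4 weeks against 12 at 2 weeks), 39 of 84 ribosomal protein genes were higher at 4 weeks and 1, Rpl22l1, was lower, at an adjusted p under 0.05 by edgeR's quasi-likelihood test with Benjamini-Hochberg adjustment over all 13630 genes tested. Over all tested genes, 14.4% were called, 8.53% higher and 5.82% lower. The median log2 fold change of the members was 0.21, against -0.03 over all tested genes, and 82 members had a positive value. The change was small, between 0.21 and 0.48 on the log2 scale among the 39. Without library 5 of Il1r1KO at 4 weeks 24 members were called, whereas 27 were called when library 5 of Il1bKO at 4 weeks was left out as well. The shares of all tested genes called in those reduced fits are not given here. By class, 19 of 43 large subunit genes, 16 of 31 small subunit genes, 2 of 3 P stalk genes and 2 of 6 paralogues rose.

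**Figure D2:**
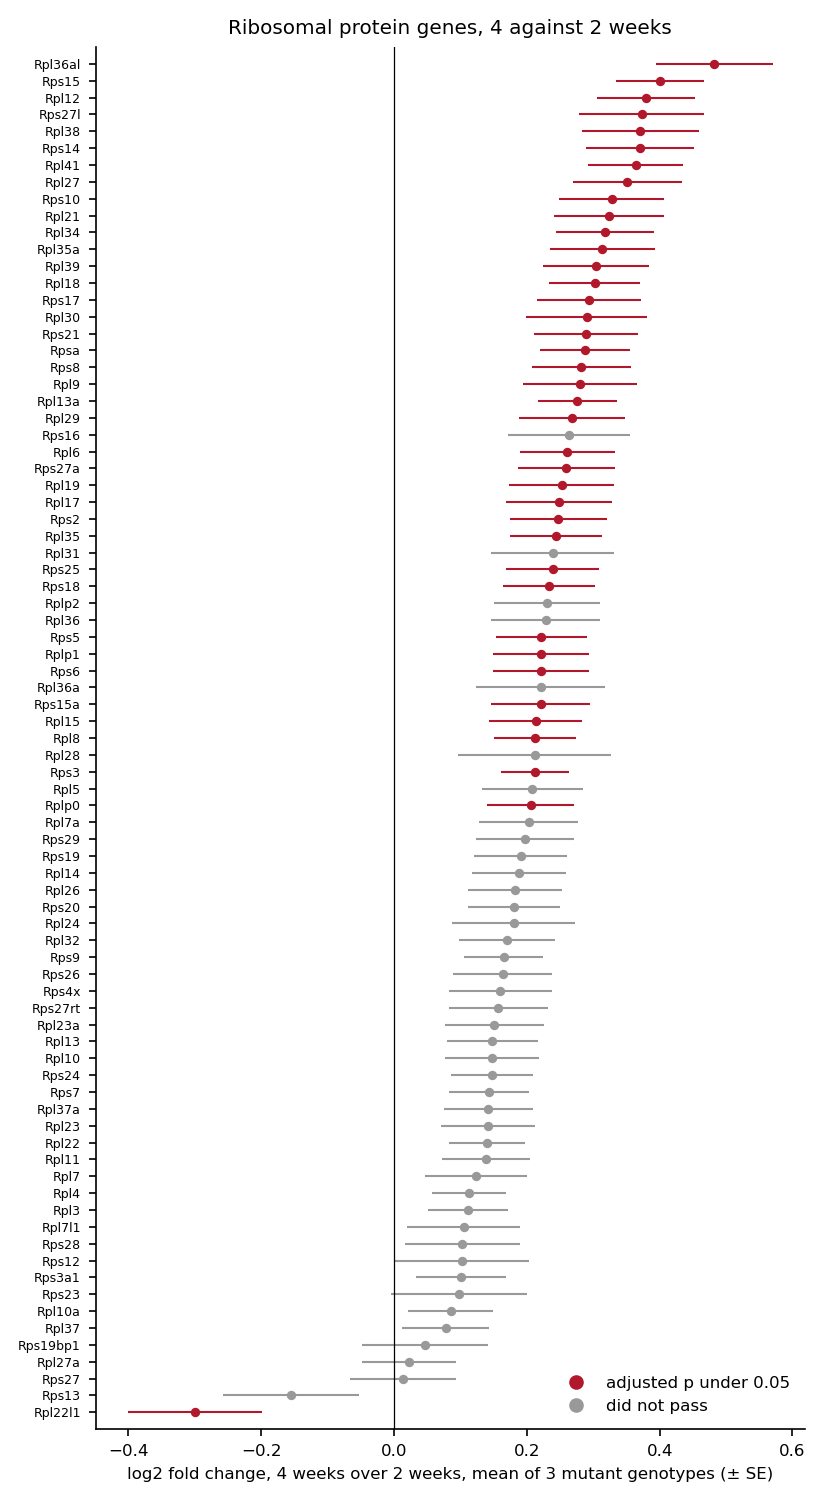
Log2 fold change of each ribosomal protein gene, 4 weeks over 2 weeks, as the mean of the 3 mutant genotypes (x axis), with its SE from the edgeR fit as bars and genes ordered by value (y axis). Red points passed an adjusted p of 0.05; Rpl36al stands at the top and Rpl22l1 at the bottom, and 3 of the 84 genes are not drawn, among them Rpl39l, which is near 0 reads in most libraries.

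Promoter windows are given because so many members moved together. RefSeq windows from 250 bases before to 50 after the start (GRCm38.p6) were matched for 64 members, with 75 windows in all. The ETS-like motif CCGGAAG, on either strand, was present in 36.0% of the members' windows and in 8.86% of all 32841 windows. The motif TCTCGCGA, on either strand, was present in 16.0%, against 0.996% of all windows. The pyrimidine motif CTTTCC, on the sense strand from 20 before to 30 after the start, was present in 17.3%, against 2.39% of all windows; a match of 1 motif can overlap another. Members with CCGGAAG had a median log2 fold change at 4 weeks of 0.24 (n = 26), and members without it 0.17 (n = 38). With CTTTCC the median was 0.24 (n = 13) and without it 0.20 (n = 51), whereas with TCTCGCGA it was 0.19 (n = 11) and without it 0.21 (n = 53). These are descriptions of windows, not of binding. The stretches from 80 before to 30 after the start are shown for 2 genes with the lowest p, for Rpl41, for Rpl22l1 and for Rps27, with motif matches in capitals. They lie at chr10:80292351-80292460 on the plus strand (Rps15), chr12:69184038-69184147 on the minus strand (Rpl36al), chr10:128549139-128549248 on the minus strand (Rpl41), chr3:28805428-28805537 on the plus strand (Rpl22l1) and chr3:90213619-90213728 on the minus strand (Rps27).
Rps15: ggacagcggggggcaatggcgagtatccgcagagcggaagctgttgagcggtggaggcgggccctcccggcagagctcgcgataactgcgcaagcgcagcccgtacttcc
Rpl36al: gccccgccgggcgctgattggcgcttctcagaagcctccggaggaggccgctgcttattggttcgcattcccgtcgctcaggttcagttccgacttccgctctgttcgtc
Rpl41: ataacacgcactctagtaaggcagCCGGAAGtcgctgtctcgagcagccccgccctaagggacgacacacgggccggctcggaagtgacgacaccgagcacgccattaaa
Rpl22l1: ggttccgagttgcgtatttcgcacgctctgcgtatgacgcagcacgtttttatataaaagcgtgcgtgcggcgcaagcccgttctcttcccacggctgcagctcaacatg
Rps27: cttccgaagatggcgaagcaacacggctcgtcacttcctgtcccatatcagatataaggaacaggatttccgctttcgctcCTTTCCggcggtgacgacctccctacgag
In these stretches Rpl41 holds CCGGAAG and Rps27 holds CTTTCC just after the start. The stretches of Rps15, Rpl36al and Rpl22l1 hold none of the 3 motifs.

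Among small subunit genes the lowest p belonged to Rps15 (ENSMUSG00000063457, chr10:80292453-80294114), a protein of the subunit head. In Il1bKO mice, Rps15 had 227, 227 and 213 CPM at 4 weeks, against 173, 160.5, 167 and 147 CPM at 2 weeks. In Il1r1KO mice, Rps15 had 291, 228 and 213 CPM at 4 weeks, against 188, 171, 183 and 163 CPM at 2 weeks. In VF mice, Rps15 had 178, 195 and 202 CPM at 4 weeks, against 182, 188, 157 and 167 CPM at 2 weeks. The libraries of the 2 weeks did not overlap in Il1bKO or Il1r1KO and overlapped in VF, and those labelled WT had 157, 187, 156 and 178 CPM. The mean change was 0.40 on the log2 scale (SE 0.07, edgeR adjusted p = 0.00119). Rps15 was called under all 30 alternative settings run for this comparison.

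Rps14 (ENSMUSG00000024608), whose loss of 1 copy underlies the anemia of the human 5q- syndrome, was the next small subunit gene by p. In Il1bKO mice, Rps14 had 610.0, 611 and 521 CPM at 4 weeks, against 398, 425, 408 and 385 CPM at 2 weeks. In Il1r1KO mice, Rps14 had 628, 513 and 403 CPM at 4 weeks, against 469.5, 384, 427 and 382 CPM at 2 weeks. In VF mice, Rps14 had 623, 425 and 507 CPM at 4 weeks, against 466.4, 476, 427 and 497 CPM at 2 weeks. The weeks stood apart in Il1bKO only. The log2 fold change was 0.37 (SE 0.08, edgeR adjusted p = 0.00542), and it was 0.54 in Il1bKO alone, where it missed the threshold at an adjusted p of 0.0605. Rpsa, which is also known as a laminin receptor, rose by 0.29 (adjusted p = 0.00805). Rps6, the substrate of the S6 kinases, rose by 0.22 (adjusted p = 0.0431) and lost its call in 14 of the 21 fits that left out 1 library. Rps27a, made as a fusion with ubiquitin, rose by 0.26 (adjusted p = 0.0215). Rps19, the gene most often mutated in human Diamond-Blackfan anemia, had a log2 fold change of 0.19 and did not pass (adjusted p = 0.0698), nor did the X-linked Rps4x at 0.16 (adjusted p = 0.176). Rps13 was the only other member besides Rpl22l1 with a negative value, -0.15, and did not pass (adjusted p = 0.339).

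Among large subunit genes the lowest p belonged to Rpl41 (ENSMUSG00000093674, chr10:128548114-128549305), which encodes the smallest ribosomal protein. In Il1bKO mice, Rpl41 had 301, 327 and 325 CPM at 4 weeks, against 254, 225, 263 and 224 CPM at 2 weeks. In Il1r1KO mice, Rpl41 had 425, 324 and 304 CPM at 4 weeks, against 288, 214, 278 and 226 CPM at 2 weeks. In VF mice, Rpl41 had 297, 293 and 294 CPM at 4 weeks, against 279, 292, 254 and 284 CPM at 2 weeks. Every 4-week library lay above every 2-week mutant library, by little in VF. Rpl41 was the only member of which this held, and it held for 0.205% of all tested genes. Its log2 fold change was 0.36 (SE 0.07, edgeR adjusted p = 0.00285).

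Rpl12 (ENSMUSG00000038900, chr2:32961559-32965345), which forms the base of the P stalk, rose by 0.38 on the log2 scale (SE 0.07, edgeR adjusted p = 0.00285). In Il1bKO mice, Rpl12 had 48.6, 50.1 and 56.0 CPM at 4 weeks, against 42.8, 43.7, 41.0 and 37.6 CPM at 2 weeks. In Il1r1KO mice, Rpl12 had 73.5, 57.6 and 56.3 CPM at 4 weeks, against 44.1, 42.3, 38.8 and 44.1 CPM at 2 weeks. In VF mice, Rpl12 had 45.5, 51.9 and 53.2 CPM at 4 weeks, against 48.5, 48.1, 42.2 and 45.1 CPM at 2 weeks. The weeks stood apart in both knockouts and overlapped in VF. Rpl13a, known in human myeloid cells for silencing inflammatory mRNAs, rose by 0.28 (adjusted p = 0.00489), Rpl18 by 0.30 (adjusted p = 0.00666) and Rpl34 by 0.32 (adjusted p = 0.00728). Rpl39, a protein of the nascent peptide tunnel, rose by 0.30 (adjusted p = 0.0149). Several large subunit genes of known regulatory roles did not pass. Rpl5 and Rpl11, which with 5S ribosomal RNA bind Mdm2 and so link the ribosome to p53, had log2 fold changes of 0.21 (adjusted p = 0.0698) and 0.14 (adjusted p = 0.167). Rpl3, at the peptidyl transferase centre, had 0.11 (adjusted p = 0.225), and Rpl10, which is needed for subunit joining, had 0.15 (adjusted p = 0.172). The smallest changes were those of Rpl27a, at 0.02 (adjusted p = 0.867), and of the small subunit gene Rps27, at 0.01 (adjusted p = 0.936), whose sign turned under 3 other normalizations or tools.

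The P stalk recruits the elongation factors. Rplp0, its anchor, rose by 0.21 (SE 0.07, edgeR adjusted p = 0.037) and Rplp1 by 0.22 (adjusted p = 0.0433), whereas Rplp2 had 0.23 and missed the threshold (adjusted p = 0.0544). In Il1bKO, Rplp0 had 705, 881 and 847 CPM at 4 weeks, against 778, 781, 735 and 706 CPM at 2 weeks. In Il1r1KO, Rplp0 had 1062, 809 and 759 CPM at 4 weeks, against 813, 723, 812 and 712 CPM at 2 weeks. In VF, Rplp0 had 1034, 814 and 918 CPM at 4 weeks, against 850.1, 835, 778 and 789 CPM at 2 weeks. The weeks overlapped in every genotype, and Rplp0 lost its call in 11 of the 21 fits that left out 1 library. Over all 30 alternative settings Rplp0 was called in 17 and Rplp1 in 10.

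Counted within single genotypes, few members passed. In Il1bKO, Rps15 rose by 0.48 (edgeR adjusted p = 0.0483) and was the only member called, beside 0.748% of all tested genes called and 0.301% called higher, and the median over members was 0.22. In Il1r1KO, 6 members rose, beside 2.46% of all tested genes called and 1.67% called higher, with a median over members of 0.27. They were Rpl12 at 0.62 (adjusted p = 0.0222), Rps15 at 0.53 (0.0256), Rpl41 at 0.54 (0.0308), Rpl27 at 0.56 (0.0425), Rpl39 at 0.52 (0.0479) and Rpl35a at 0.51 (0.0483). In VF no member was called, beside 0.022% of all tested genes called, and the median over members was 0.14. There 4 members had an unadjusted p under 0.05 (8.48% of all tested genes), and limma with voom and quality weights called 1. The VF members of lowest p were Rpl36al at 0.54 (adjusted p = 0.364), Rpl10 at 0.33 (0.498) and Rpl22l1 at -0.37 (0.576).

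The 3 genotypes share no library in these comparisons, but in each of them the weeks are the same 2 processing batches. A positive value in all 3 was seen for 72 members and for 22.2% of all tested genes. Week and batch cannot be told apart in this count either. Whether the change with time differed between genotypes was tested as an interaction. No member was called for Il1bKO against VF, beside 0.0147% of tested genes called, with 1 member at an unadjusted p under 0.05 (8.28% of all tested genes), and none for Il1r1KO against VF, beside 0% of tested genes called, with 5 members at an unadjusted p under 0.05 (5.32% of all tested genes). The lowest p in the Il1bKO interaction belonged to Rps3 (0.28, edgeR adjusted p = 0.565), Rpl10 (-0.34) and Rpl27a (0.33). In the Il1r1KO interaction it belonged to Rpl12 (0.45, adjusted p = 0.876), Rpl41 (0.41) and Rpl35a (0.45). These counts rested on single libraries. In Il1r1KO without library 5 at 4 weeks no member was called and the median over members was 0.07, whereas without library 7 there were 29 calls and a median of 0.38. Leaving out libraries 1, 2, 3 or 4 at 2 weeks gave 3, 1, 2 and 0 calls. In Il1bKO the count ran from 0 to 4, with 4 without library 7 at 4 weeks. The share of all tested genes called in each of these reduced fits is not given here. A rise or fall in these counts is therefore not shown to be particular to the members.

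**Figure D3:**
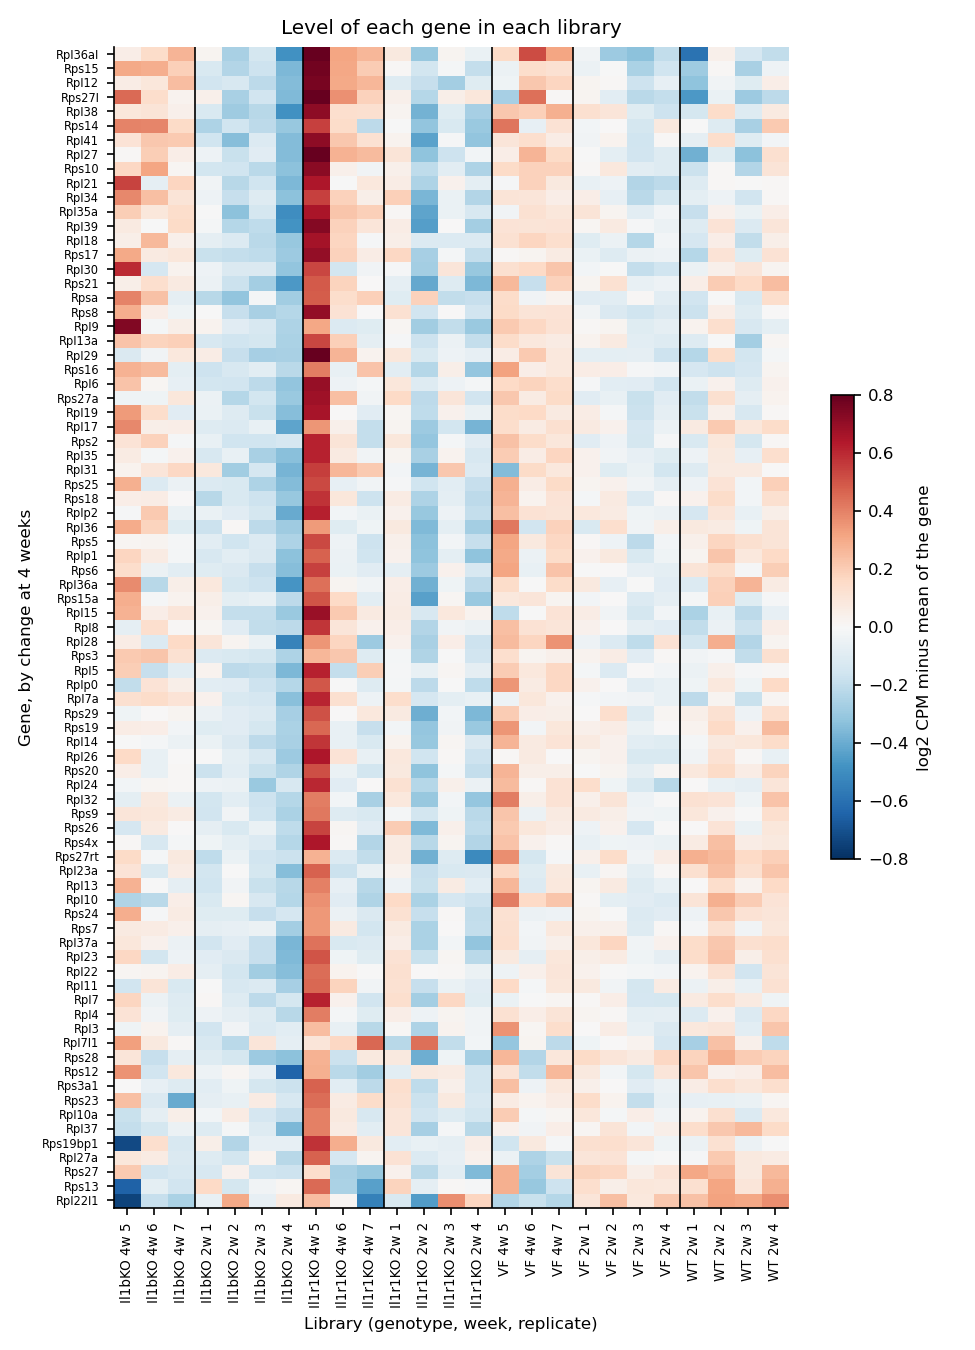
Level of 81 ribosomal protein genes (rows, ordered by their change at 4 weeks) in the 25 libraries (columns), as log2 CPM minus the mean of the gene. Library 5 of Il1r1KO at 4 weeks is high for nearly all genes and library 4 of Il1bKO at 2 weeks low for most, so that genes shift together by library.

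The paralogues, relatives of canonical ribosomal proteins whose coding identity ran from 57.7% (Rpl7l1) to an exact match (Rps27rt), held both ends of the range of called changes. Rpl36al (ENSMUSG00000049751, chr12:69182731-69184083), whose coding sequence is 87.9% identical to that of Rpl36a, had the largest called change, 0.48 (SE 0.09, edgeR adjusted p = 0.0021). In Il1bKO mice, Rpl36al had 114, 123 and 135 CPM at 4 weeks, against 114, 94.3, 102 and 80.4 CPM at 2 weeks. In Il1r1KO mice, Rpl36al had 178, 137 and 133 CPM at 4 weeks, against 118, 91.9, 112 and 107 CPM at 2 weeks. In VF mice, Rpl36al had 123, 151 and 138 CPM at 4 weeks, against 111, 92.6, 89.2 and 97.6 CPM at 2 weeks. The weeks stood apart in Il1r1KO and VF and overlapped at the edge in Il1bKO. Rpl36a itself had a log2 fold change of 0.22 and did not pass (adjusted p = 0.133), and the ratio of Rpl36al to Rpl36a was 4.07 ± 0.638 (SD, n = 9) in 4-week mutant libraries and 3.36 ± 0.306 (SD, n = 12) in 2-week mutant libraries. The ranges of this ratio, 2.77 to 4.98 at 4 weeks and 2.77 to 3.86 at 2 weeks, overlapped.

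Rpl22l1 (ENSMUSG00000039221, chr3:28805436-28807424) was the only member called lower at 4 weeks. Its partner Rpl22 is known in mice to repress Rpl22l1 and to be needed for T cell development. In Il1bKO mice, Rpl22l1 had 48.5, 71.7 and 68.6 CPM at 4 weeks, against 79.2, 102, 78.8 and 86.9 CPM at 2 weeks. In Il1r1KO mice, Rpl22l1 had 89.0, 81.8 and 56.0 CPM at 4 weeks, against 75.4, 61.2, 105 and 92.2 CPM at 2 weeks. In VF mice, Rpl22l1 had 68.7, 68.5 and 69.9 CPM at 4 weeks, against 88.6, 98.0, 87.0 and 95.1 CPM at 2 weeks. The weeks stood apart in VF and Il1bKO and overlapped in Il1r1KO, and the libraries labelled WT had 98.6, 102, 101.5 and 104 CPM. Its log2 fold change was -0.30 (SE 0.10, edgeR adjusted p = 0.0478), and it was called in 13 of the 30 alternative settings. Rpl22 had 0.14 and did not pass (adjusted p = 0.107). The ratio of Rpl22l1 to Rpl22 was 0.375 ± 0.0532 (SD, n = 9) in 4-week mutant libraries and 0.511 ± 0.0863 (SD, n = 12) in 2-week mutant libraries, with ranges of 0.273 to 0.456 and 0.336 to 0.626 that overlapped.

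Rps27l (ENSMUSG00000036781, chr9:66946086-66949516), a p53-induced paralogue of Rps27, rose by 0.37 (SE 0.09, edgeR adjusted p = 0.0117). Rps27 and Rps27rt, its copy with the same coding sequence, were not called. In Il1bKO mice, Rps27l had 227, 185 and 172 CPM at 4 weeks, against 175, 142, 152 and 133 CPM at 2 weeks. In Il1r1KO mice, Rps27l had 288, 215 and 189.7 CPM at 4 weeks, against 174, 146, 173 and 179 CPM at 2 weeks. In VF mice, Rps27l had 138, 217 and 169.6 CPM at 4 weeks, against 173, 161, 146 and 148 CPM at 2 weeks. The weeks stood apart in Il1r1KO only, and in VF library 5 was lower than every 2-week library. Rps27 had 69.5, 54.5 and 55.6 CPM in Il1bKO at 4 weeks, against 56.2, 63.1, 54.7 and 54.8 CPM in Il1bKO at 2 weeks, and its weeks overlapped in every genotype. Rps27rt had 359, 321 and 344 CPM in Il1bKO at 4 weeks, against 285, 319, 295 and 292 CPM at 2 weeks, without overlap. The weeks of Rps27rt overlapped in Il1r1KO and VF. The ratio of Rps27l to Rps27 was 3.51 ± 0.925 (SD, n = 9) in 4-week mutant libraries and 2.69 ± 0.452 (SD, n = 12) in 2-week mutant libraries. The ranges of this ratio, 1.88 to 4.68 at 4 weeks and 2.25 to 3.77 at 2 weeks, overlapped. The coding sequences below are shown because the same protein family is read from 3 loci. Rps27 (chr3:90212522-90213651 on the minus strand) and Rps27rt (chr9:114982366-114982739 on the minus strand) have coding sequences that match at all 255 bases, so 1 line stands for both, while Rps27l (chr9:66946086-66949516 on the plus strand) matches Rps27 at 196 of 256 aligned positions (GRCm38, GENCODE vM21, 5' to 3').
Rps27 and Rps27rt: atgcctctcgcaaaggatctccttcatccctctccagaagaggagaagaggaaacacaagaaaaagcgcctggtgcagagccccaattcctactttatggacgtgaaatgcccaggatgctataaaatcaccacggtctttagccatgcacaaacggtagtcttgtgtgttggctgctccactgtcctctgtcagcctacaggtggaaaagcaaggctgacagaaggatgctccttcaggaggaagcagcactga
Rps27l: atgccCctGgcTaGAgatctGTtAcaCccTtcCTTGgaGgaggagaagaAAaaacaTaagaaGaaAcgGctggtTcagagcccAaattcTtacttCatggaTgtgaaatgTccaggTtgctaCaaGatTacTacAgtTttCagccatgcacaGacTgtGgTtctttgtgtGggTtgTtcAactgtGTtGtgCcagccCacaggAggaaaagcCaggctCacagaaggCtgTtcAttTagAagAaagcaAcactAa
Capitals mark the bases of Rps27l that differ from Rps27 or face a gap in the alignment. Rps27rt, a single-exon locus, was counted at 328 ± 45.9 CPM and Rps27 at 61.2 ± 8.70 CPM (SD, n = 25). How reads that match several places were counted is not given in the sources used here, so the split between Rps27 and Rps27rt is uncertain. The same holds for Rpl10 and Rpl10-ps3, identical over 645 coding bases, for Rpl9 and Rpl9-ps6 (99.8% identical) and for Rpl36a and Rpl36a-ps1 (97.8%).

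Rpl39l was at or near 0 reads in most libraries. It had 0.0410, 15.3 and 0.0380 CPM in Il1r1KO at 4 weeks, against 0.847, 0, 0.0780 and 0.0320 CPM in Il1r1KO at 2 weeks. Libraries labelled WT had 0, 2.43, 0 and 0.109 CPM, and no VF or Il1bKO library exceeded 0.127 CPM. A single library thus carried the level of this gene. Rpl7l1, a nucleolar relative of Rpl7 that acts in ribosome assembly, had a log2 fold change of 0.11 at 4 weeks and did not pass (adjusted p = 0.447).

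**Figure D4:**
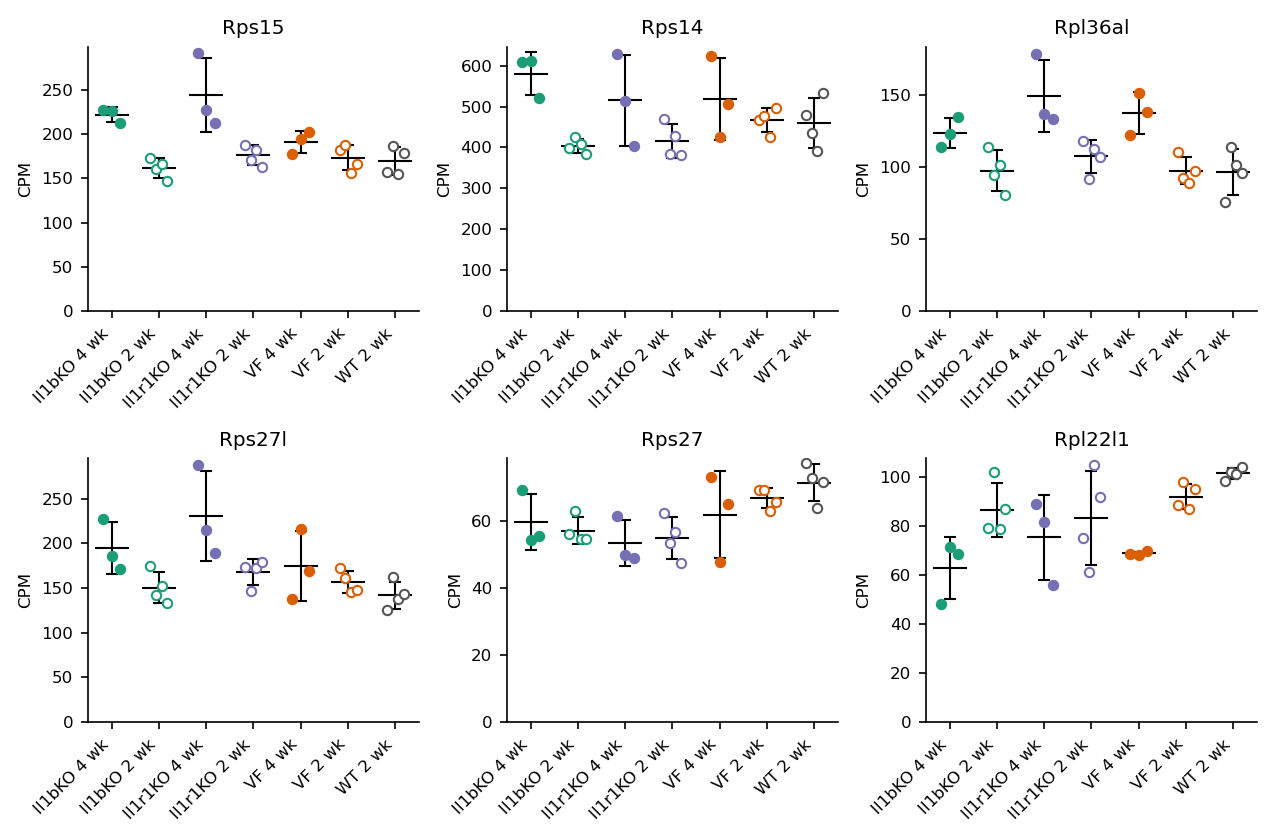
CPM of 6 ribosomal protein genes (y axes, from 0) in each library by genotype and week (x axes), with points filled at 4 weeks and open at 2 weeks and bars for mean and SD. Rps15, Rps14, Rpl36al and Rps27l are higher at 4 weeks in most libraries, Rps27 shows overlapping weeks, and Rpl22l1 is lower at 4 weeks in VF and Il1bKO.

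Members moved together from library to library. Taken as deviations from the group mean of log2 CPM over 25 libraries, the median correlation between 2 members was 0.692, against -0.0008 between 2 other genes averaging at least 10 CPM (n = 10018) and 0.254 between 2 other genes with a principal transcript under 1000 bp (n = 743). Of the 84 members, 79 correlated above 0.5 with the median of the others, and Rps3a1, a small subunit protein, was the closest to it at 0.956. The exceptions were Rpl7l1 (-0.43), Rpl39l (0.04), Rps19bp1 (0.28), Rpsa (0.33) and Rpl22l1 (0.46), of which only Rpsa is a canonical ribosomal protein. The points share libraries and their depth, and these correlations are descriptions.

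This common movement was shared with short genes in general. Principal transcripts of the members were 271 to 3706 bp long, with a median of 680.5 bp. The members' median deviation followed that of the other short genes with Pearson's r = 0.949 and Spearman's rho = 0.903 over 25 libraries, and with r = 0.874 without libraries 5 and 7 of Il1r1KO at 4 weeks, the 2 farthest from the median. Against the median of genes of 4000 bp and over (n = 2819) r was -0.821, rho was -0.678, and r without the same 2 libraries was -0.550. With the summed proliferation markers r was 0.233 and rho was 0.309, and on levels, which include the differences between groups, r was 0.519. These relations were computed on a median over members and are given without p.

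**Figure D5:**
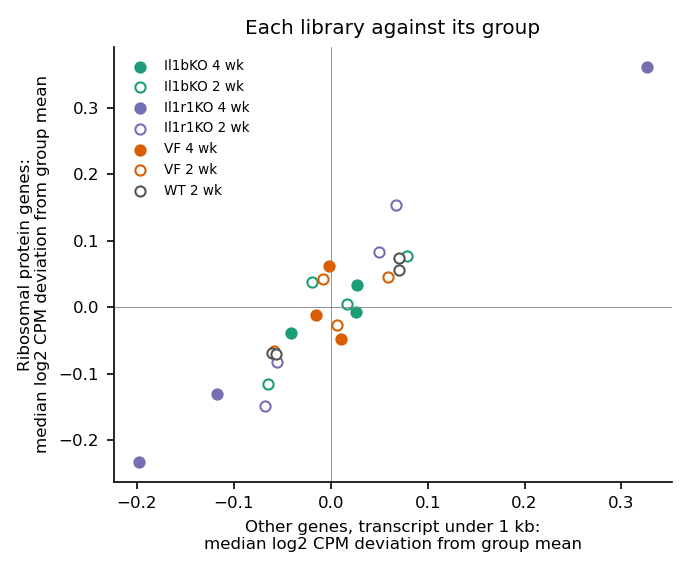
Median deviation of the ribosomal protein genes from their group mean (y axis, log2 CPM) against that of 743 other genes with a principal transcript under 1 kb (x axis, log2 CPM), 1 point per library, filled at 4 weeks and open at 2 weeks. The points follow a rising line (r = 0.949), with library 5 of Il1r1KO at 4 weeks at the upper end.

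The change with time also went with transcript length. Among genes with a principal transcript under 1000 bp, 33 of 66 members were higher at 4 weeks, and so were 290 of 1093 other genes (26.5%). From 1000 to under 2000 bp it was 6 of 16 members (37.5%), against 14.5% of other genes, and from 2000 to under 4000 bp 0 of 2 members, against 5.33% of other genes. Of other genes of 4000 bp and over, 1.96% were higher and 8.49% lower. The median log2 fold change under 1000 bp was 0.22 for members and 0.17 for other genes. The part of transcript length in the members' change was not tested.

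Other measures also moved between the weeks. The summed HSC markers were 2611 ± 282 CPM in 4-week mutant libraries (SD, n = 9) and 3362 ± 260 CPM in 2-week mutant libraries (SD, n = 12), without overlap. The 4-week sums of the proliferation markers, 1485 ± 383 CPM, and the 2-week sums, 1073 ± 145 CPM, overlapped. Within genotypes they overlapped in Il1bKO and VF. In Il1r1KO they stood apart, at 1565 to 2085 CPM at 4 weeks against 968 to 1191 CPM at 2 weeks. Multipotent progenitor markers (Cd48, Flt3 and Cd34) summed to 342 ± 129 CPM at 4 weeks and 255 ± 75.2 CPM at 2 weeks. Cd34 held most of that sum. Cd48, which the sort selects against, had 3.99 to 17.0 CPM in 4-week mutant libraries. In 2-week mutant libraries Cd48 had 0.61 to 5.63 CPM, and within genotypes the weeks overlapped in Il1r1KO only. Lineage sums overlapped between the weeks: neutrophil and monocyte markers were 567 ± 108 CPM at 4 weeks and 681 ± 96.0 CPM at 2 weeks, erythroid markers 2150 ± 361 CPM and 2325 ± 333 CPM, and megakaryocyte markers 799 ± 574 CPM and 617.2 ± 294 CPM. The other sums, of B cell, T and NK cell, mast and basophil, and endothelial and stromal markers, overlapped between the weeks as well. Car2 held most of the erythroid sum, at 1453 to 2677 CPM in mutant libraries, and Gata2 most of the mast and basophil sum. Each of these sums therefore mostly follows a single gene and says little about its lineage. The part of all these measures in the change of the ribosomal protein genes was not tested.

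The question whether the JAK2 mutation changes ribosomal protein expression was addressed at 2 weeks by VF against WT. No member was called by edgeR, beside 0.00734% of all tested genes called, and 1 member had an unadjusted p under 0.05 (2.27% of all tested genes). The median log2 fold change of the members was -0.05, and 65 of 84 were lower in VF, while 49.5% of all tested genes were. The member with an unadjusted p under 0.05 was Rpl10, which had 161, 152, 149 and 147 CPM in VF, against 174, 192, 182 and 168 CPM in libraries labelled WT. The Rpl10 values did not overlap, and its log2 fold change of -0.24 (SE 0.11) did not pass after adjustment (adjusted p = 1). Rpl23a followed at -0.21 (adjusted p = 1), and Rpl39l was near 0 in both groups apart from library 2 labelled WT. Neither DESeq2 nor limma called a member.

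Deletion of Il1b in the mutant cells was compared with VF at each week. At 2 weeks every one of the 84 members was lower in Il1bKO than in VF, with a median log2 fold change of -0.13, while 49.9% of all tested genes were lower. No member was called by edgeR, beside 0.00734% of tested genes called, and 3 had an unadjusted p under 0.05 (1.36% of all tested genes). Members moved together by library: their median log2 CPM was 6.97, 6.91, 6.89 and 6.73 in Il1bKO, against 7.04, 6.99, 6.89 and 6.95 in VF, and these values overlapped. The 3 of lowest p were Rpl37a (-0.26, adjusted p = 1), Rps28 (-0.34) and Rpl22 (-0.20). Rpl37a, a zinc-finger protein of the large subunit, had 156, 164, 153 and 135 CPM in Il1bKO, against 185, 197, 169.9 and 177 CPM in VF. These Rpl37a values did not overlap.

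At 4 weeks the median of Il1bKO against VF was -0.03 and 57 members were lower. No member was called by edgeR, beside 0.125% of tested genes called, and 1 had an unadjusted p under 0.05 (14.7% of all tested genes). That was Rpl10, with 132, 136 and 164 CPM in Il1bKO, against 207, 167 and 184 CPM in VF. The groups did not overlap, and the log2 fold change was -0.39 (SE 0.13, adjusted p = 0.188). Next were Rpl7l1 at 0.30 and Rpl3 at -0.20. Over both weeks no member was called by edgeR, beside 0.139% of tested genes called, 2 had an unadjusted p under 0.05 (9.38% of all tested genes) and the median was -0.10, with Rpl10 at -0.22 (adjusted p = 0.447), Rpl32 at -0.20 and Rps28 at -0.22.

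Deletion of Il1r1, the interleukin-1 receptor, was compared with the same VF libraries. At 2 weeks 64 of 84 members were lower in Il1r1KO than in VF, with a median of -0.05, while 48.9% of all tested genes were lower. No member was called by edgeR, beside 0.0514% of tested genes called, and 2 had an unadjusted p under 0.05 (3.15% of all tested genes). These were Rps27rt (-0.27, adjusted p = 1) and its copy Rps27 (-0.27), between which reads may be split, followed by Rps21 (-0.24). At 4 weeks the median was 0.10, with no member called by edgeR, beside 0.147% of tested genes called, and 11 at an unadjusted p under 0.05 (12.7% of all tested genes). Lowest in p were Rps15 (0.37, adjusted p = 0.221), Rpl15 (0.38) and Rpl7l1 (0.41). Without library 5 of Il1r1KO the 4-week median was -0.10, so its sign rests on that library. Over both weeks the median was 0.02, no member was called by edgeR, beside 0.169% of tested genes called, and 6 had an unadjusted p under 0.05 (11.4% of all tested genes), whereas limma called 1. The lowest p was that of Rpl39l, which rests on library 6 at 4 weeks, followed by Rps15 (0.20, adjusted p = 0.347) and Rpl15 (0.21).

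Il1bKO against Il1r1KO over both weeks had a median of -0.11, with no member called by edgeR, beside 0.176% of tested genes called, and 12 at an unadjusted p under 0.05 (14.1% of all tested genes). After Rpl39l, which was at or near 0 in Il1bKO, the lowest p were those of Rpl29 (-0.28, adjusted p = 0.236) and Rps27a (-0.24). The median was -0.01 without library 5 of Il1r1KO at 4 weeks.

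Each knockout was also set against the libraries labelled WT at 2 weeks. In Il1bKO 83 of 84 members were lower than in WT, where 49.1% of all tested genes were, with a median of -0.18. No member was called by edgeR, beside 0.044% of tested genes called, and 23 had an unadjusted p under 0.05 (3.10% of all tested genes). The lowest p were those of Rpl37a (-0.36, adjusted p = 0.884), Rps21 (-0.40) and Rpl37 (-0.33). Rps21, a small subunit protein, had 52.7, 48.5, 44.97 and 39.6 CPM in Il1bKO, against 57.3, 62.1, 60.1 and 63.0 CPM in libraries labelled WT, without overlap. In Il1r1KO 68 members were lower than in WT, with a median of -0.12, no member called by edgeR, beside 0.0587% of tested genes called, and 12 at an unadjusted p under 0.05 (5.98% of all tested genes). There Rps27rt (-0.44, adjusted p = 0.339), Rps21 (-0.40) and Rps27 (-0.38) had the lowest p. The VF and WT libraries serve in several of these comparisons, which are therefore not independent.

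Other genes of translation were followed through 6 lists. At 4 against 2 weeks in the mutants, 11 of 36 initiation factors rose by edgeR's test and none fell, with a median log2 fold change of 0.15. Over all tested genes, 8.53% rose and 5.82% fell. Outside the ribosomal protein set, 26.5% of genes under 1000 bp rose. The share was 14.5% from 1000 to under 2000 bp and 5.33% from 2000 to under 4000 bp. Transcript lengths of the list genes are not given here. The initiation factors that rose included Eif6, which keeps the subunits apart (0.41, adjusted p = 0.0011), and Eif4a1, an RNA helicase (0.33, adjusted p = 0.0097). Eif3k (0.26, adjusted p = 0.00976) and Eif4e, the cap-binding protein (0.34, adjusted p = 0.0109), were also among them. Of 13 elongation and termination factors 4 rose and none fell, with Eif5a at 0.39 (adjusted p = 0.0021), Eef1d at 0.28, Pabpc4 at 0.27 and Eef1b2 at 0.23. Of 12 ribosome-associated genes 8 rose and none fell, with a median of 0.24. They included Rack1, which sits on the small subunit (0.31, adjusted p = 0.00586), Ccdc124 (0.42, adjusted p = 0.00615), Hspa14 (0.38) and Nap1l1 (0.39).

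Of 9 ribosomal protein chaperones, which escort new ribosomal proteins to assembly, Ltv1 rose (0.45, adjusted p = 0.00361) and no other passed. That is 1 of 9 called, beside 14.4% of all tested genes. Of 13 genes of TOP mRNA and mTORC1 control, Rheb, the activator of mTORC1, rose (0.25, adjusted p = 0.00607) and Tsc2, which inactivates Rheb, fell (-0.41, adjusted p = 0.0347), with a list median of -0.0025, so 2 of 13 were called, beside 14.4% of all tested genes. Of 10 tested genes of ribosome quality control none was called by edgeR, beside 14.4% of all tested genes. None of the 10 had an unadjusted p under 0.05, beside 28.9% of all tested genes. In the comparisons between genotypes at a given week or over both, no gene of the 6 lists was called, beside 0.00734% to 0.176% of all tested genes.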

How the data were processed

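Gene-level read counts for 25 HSC libraries were used as deposited by the authors, with no normalization. Per the labels' protocols, libraries were made from polyA RNA with the SMART-Seq v4 kit without strand information, so overlapping antisense genes cannot be separated. Listed in the submitters' processing notes are the build mm10 and, with no role given, STAR 2.7.10a, featureCounts, FastQC 0.11.5 and R 4.2.2. The annotation release and the treatment of reads that match several places are not given in the sources used here. Symbols came from GENCODE vM21 for 13623 identifiers, and promoter windows from RefSeq (GRCm38.p6).

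Genes were tested with edgeR 4.0.16 in R 4.3.3 (TMM factors, filterByExpr, robust quasi-likelihood, 13630 genes) in 1 model of 7 groups, with Benjamini-Hochberg adjustment and a threshold of 0.05. Values given as log2 CPM used library totals scaled by the TMM factors and a prior count of 2. They therefore differ from the log2 of the CPM given per library. Alternatives used other scalings, filters and library sets, DESeq2 1.42.0 and limma 3.58.1. The fit was also run on simulated counts with known changes, and the outcome is not given here. Those counts were drawn for each gene independently, so the run does not cover members that move together. Library totals were 21990959 to 40178173 counts. The text names the 8 called members of lowest p in each direction, and the 3 of lowest p elsewhere, beside members named for their role after values were seen. Members and lists were chosen with earlier results of these data known. Results of single genes for 2 members are not reported here, and these are left out of the plots by gene; they stay in all counts and medians.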

Additional observations from a re-analysis of the deposited data

Results flagged for a closer look

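Of 120 tests for a library standing apart within its group of 4, 4 met the criterion, and chance gives about 1 in 20. Rpl39l was high in library 2 labelled WT (2.43 CPM, where the others had 0 to 0.109 CPM) and in library 1 of Il1r1KO at 2 weeks (0.847 CPM). Rpl39l was also set apart in library 4 of Il1bKO at 2 weeks, where it had 1 read (0.034 CPM) and the other libraries had 0. A single read against 0 meets the criterion by itself, so this flag carries no information. Rpl5, a partner of 5S ribosomal RNA, stood apart in library 2 labelled WT at 95.9 CPM, where the other 3 libraries lay within 92.6 to 92.8 CPM.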

How the results depend on the processing

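In the mutants at 4 against 2 weeks, the number of members called lay between 24 and 49 when 1 library was left out, the lowest without library 5 and the highest without library 7 of Il1r1KO at 4 weeks. DESeq2 called 43 and limma with voom and quality weights 34. The share of all tested genes called in each alternative fit of this section is not given here. A rise or fall in these counts is therefore not shown to be particular to the members. The fits of single genotypes depended more on the setting. In Il1bKO, 0 members were called with RLE factors, with upper-quartile factors, with a filter of 5 CPM in 3 libraries and in a fit of the compared groups only, DESeq2 called 6, and leaving out 1 library gave 0 to 4. In Il1r1KO, upper-quartile factors, library totals and limma each called 3, DESeq2 called 12, and a fit of the compared groups only called 0. Leaving out 1 library gave 0 to 29 calls there and a median over members of 0.075 to 0.38, and limma gave a median of 0.13. With library 5 of both knockouts at 4 weeks left out, a setting chosen after seeing the data, Il1r1KO had 0 calls and a median of 0.084. In VF at 4 against 2 weeks, and in Il1r1KO against VF over both weeks, limma called 1 member each. The median of Il1r1KO against VF at 4 weeks was -0.054 with limma, -0.10 without both libraries 5, and -0.10 to 0.22 when 1 library was left out. The median of the Il1r1KO interaction was -0.056 without both libraries 5, and -0.061 to 0.26 when 1 library was left out. Rps27 in the mutants at 4 against 2 weeks turned to -0.018 with upper-quartile factors, -0.028 with library totals, -0.048 with limma and -0.077 without both libraries 5, and lay between -0.037 and 0.063 when 1 library was left out. The cause of these changes was not tested. Replicate numbers did not pair the libraries: the median correlation of 33 same-numbered pairs was -0.015 and none exceeded 0.1. With the replicate number as a block, 0 members were called in VF against WT and the median was -0.06, and the block changed no call between genotypes. No paired analysis was possible for 4 against 2 weeks because the weeks share no replicate number.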
